A study of Homo sapiens with 8 samples.

Results

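The microRNA gene rows described here were the rows of the transcript table whose RefSeq identifier belongs to a microRNA gene, host-gene transcripts left out, and whose deposited value was above 0 in at least 1 of 8 libraries. They numbered 70 of 1797 microRNA gene rows (3.90%) and of 53216 rows in all, and the other 1727 microRNA gene rows were listed at 0 in every library. Of the 51419 rows that are no microRNA gene, 82.2% were above 0 in at least 1 library. The members were thus chosen by the deposited values themselves, so their levels are given as a description and detection is not tested.

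The RNA came from HEK293T, a human embryonic kidney cell line grown under standard conditions without treatment. RNA of wild-type (WT) cells was depleted of ribosomal RNA with RiboMinus in 2 libraries and enriched by NAD-Capture in 3, and 3 further libraries held captured RNA of HEK293T cells whose label is DXO-KO, short for a DXO knockout. NAD-Capture marks RNA that carries an NAD cap with biotin through an ADP-ribosyl cyclase and a click reaction, and streptavidin beads then bind it. RiboMinus RNA was made into libraries with a TruSeq kit and captured RNA with a SMARTer low-input kit, so enrichment and kit cannot be told apart, and libraries of the control reaction without the cyclase were not analysed here. The labels do not say whether the cells labelled DXO-KO are 1 clone, whether replicates are separate cultures, or how the knockout was made, so p-values measure the spread between these libraries only.

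A microRNA is cut from a long primary transcript in several steps. In the nucleus the DROSHA and DGCR8 complex releases a hairpin, which XPO5 exports, and DICER1 trims it to a mature strand that an Argonaute protein holds. Bases 2 to 8 of the mature strand, the seed, pair with target messages. Many microRNA genes lie in introns or exons of other genes or of long noncoding RNAs, and a read on the hairpin's row can come from the primary transcript, the hairpin or an overlapping RNA. Library preparation for long RNA is not designed to recover mature strands, so the rows here speak of hairpins and the transcripts that contain them.

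Mature sequences were taken from RefSeq (GRCh38.p14) for 63 of the 70 members, 88 sequences in all. Each of the 88 had a seed of its own, so no seed was shared between members. The sequences below, with the seed in capitals, belong to members that recurred across libraries, that passed a test between groups, that had the highest value in a library, that reached about 3 fragments in one, or that lie in a snoRNA gene.

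hsa-miR-663a: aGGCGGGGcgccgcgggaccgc
hsa-miR-3648: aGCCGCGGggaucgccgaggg
hsa-miR-3652: cGGCUGGAggugugagga
hsa-miR-1248: aCCUUCUUguauaagcacugugcuaaa
hsa-miR-3651: cAUAGCCCggucgcugguacauga
hsa-miR-5047: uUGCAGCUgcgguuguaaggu
hsa-miR-630: aGUAUUCUguaccagggaaggu
hsa-miR-3939: uACGCGCAgaccacaggauguc
hsa-miR-3661: uGACCUGGgacucggacagcug
hsa-miR-301b-3p: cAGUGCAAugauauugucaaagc
hsa-miR-553: aAAACGGUgagauuuuguuuu
hsa-miR-133a-3p: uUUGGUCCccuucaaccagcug

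The second set shows both strands of MIR323B and MIR329-1, since these members belong to the large cluster of microRNA genes on chromosome 14 described further on. Each hairpin of this pair yields a 5p and a 3p strand, and the 4 seeds differ.

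hsa-miR-323b-5p: aGGUUGUCcguggugaguucgca
hsa-miR-323b-3p: cCCAAUACacggucgaccucuu
hsa-miR-329-5p: gAGGUUUUcuggguuucuguuuc
hsa-miR-329-3p: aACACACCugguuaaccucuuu

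The last set gives the hairpins of the 2 members that overlap a small nucleolar RNA (snoRNA) gene, with the mature microRNA in capitals. snoRNAs guide chemical modification of ribosomal RNA and are abundant nuclear RNAs. The capitals show that the mature strand of MIR1248 lies near the 5′ end of its hairpin and that of MIR3651 near the 3′ end.

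MIR1248: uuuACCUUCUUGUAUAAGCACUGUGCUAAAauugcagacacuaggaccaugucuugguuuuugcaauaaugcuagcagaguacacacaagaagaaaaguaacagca
MIR3651: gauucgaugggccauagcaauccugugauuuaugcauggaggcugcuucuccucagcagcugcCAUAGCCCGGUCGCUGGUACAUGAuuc

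The targeted gene, DXO, codes for an enzyme that removes the NAD cap from RNA. Its level was 128, 61.6 and 71.7 FPKM (fragments per kilobase of transcript, normalised to library depth) under the knockout label, 33.2, 17.2 and 27.1 FPKM after capture from WT cells, and 11.2 and 14.3 FPKM in RiboMinus RNA. DXO was thus listed higher in every library with the knockout label than in any WT library. The libraries with that label held captured RNA only, and whether DXO was lost in those cells was not tested. With FPKM summed per gene, the difference from WT NAD-Capture was 1.69 on the log2(FPKM + 1) scale (SE 0.39) and did not pass the threshold (limma, adjusted p = 0.118). Of 8 genes known for HEK293T cells, 6 were above 0 in all 8 libraries, and KRT18 and PAX2 in 7. Among genes typical of blood, liver or muscle, PTPRC and HBB were at 0 throughout and CD3E and ALB above 0 in 1 library. MYH7 was above 0 in 3 libraries, APOA1 in 4 and ACTA1 in 6, at up to 5.13, 14.2 and 7.92 FPKM, beside 7.17 for PAX2. Being above 0 therefore does not mark the cell type here. Between 17423 and 31667 rows were above 0 per library, and summed FPKM ran from 541482 to 8558867, with the highest sums in DXO-KO replicates 2 and 3.

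Detection was sparse and rarely repeated. Of the 70 members, 53 were above 0 in 1 library, 9 in 2, 3 in 3, 2 in 4, 2 in 5 and 1, MIR663A, in 7, and none was above 0 in all 8. The RiboMinus libraries held 5 and 18 members, the WT NAD-Capture libraries 13, 13 and 19, and the DXO-KO-labelled libraries 20, 8 and 9. In total 51 members were seen only in NAD-Capture libraries and 15 only in RiboMinus. These counts set 3 WT and 3 DXO-KO-labelled NAD-Capture libraries against 2 of RiboMinus, and most members were in 1 library. They therefore do not compare capture with RiboMinus, and the same counts were not made over all rows.

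Replicates of a group seldom shared a member. None of the 38 members seen in WT NAD-Capture was above 0 in all 3 replicates, against 43.0% of the rows that are no microRNA gene and 55.5% of snoRNA and scaRNA (small Cajal body RNA) rows seen in that group. Of the 26 members seen in the DXO-KO-labelled libraries, 3 (11.5%) were above 0 in all 3 replicates: MIR663A, MIR6723 and MIR1248. In RiboMinus 4 of 19 members were above 0 in both replicates, MIR663A, MIR5047, MIR630 and MIR3939, against 81.6% of the rows that are no microRNA gene.

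The number of fragments behind each value was estimated from the deposited values. At a given length and library, FPKM values of short RNA rows were read as whole multiples of a base value, the FPKM of 1 fragment. With it, 79.0% to 90.7% of the values under 10 fragments lay within 0.1 of a whole number. The base value was fitted to bring these same values near whole numbers, so that share is no separate check. That base value rose steeply as the hairpin became shorter. In WT NAD-Capture replicate 1 it was 509 FPKM at 130 nt, 2945 at 100 nt and 18237 at 85 nt. It also differed between libraries, from 171 FPKM in RiboMinus replicate 2 to 18258 in DXO-KO replicate 3 at 100 nt.

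Most members rested on 1 fragment. Of the 105 values above 0, 70 (66.7%) were within 0.25 of 1 fragment and 12 of 2 fragments, 15 were at about 3 or more (2.75 and over), 4 were under 0.75, and 4 lay between. All members in all libraries came to about 199 fragments. The case of MIR593 and MIR140, both 100 nt, shows the step directly, since both were listed at 3414 FPKM in WT NAD-Capture replicate 2, the value of 1 fragment there. The members had been part of the short rows that set the base value. Set without them, 64 values were near 1 fragment and the total was 205, with the change mainly in WT NAD-Capture replicate 3. In that library 8 values in place of 15 were then near 1 fragment, and the sum was 35 fragments in place of 27.

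**Figure D1:**
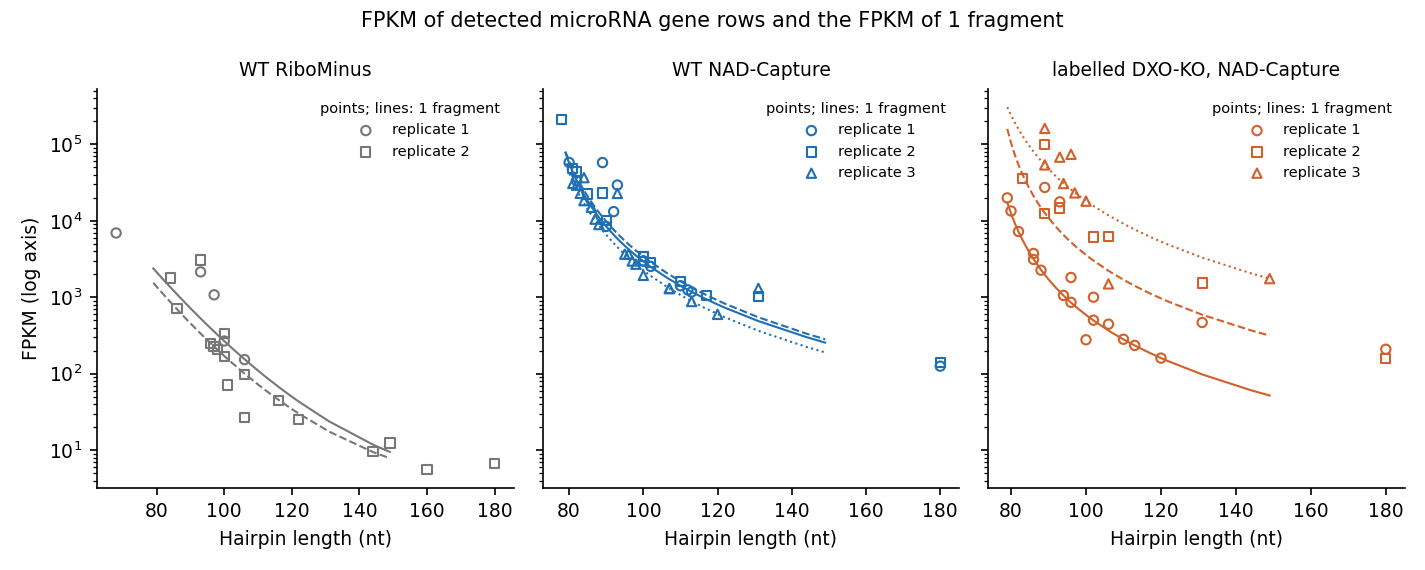
FPKM (log axis) of each member above 0 against its hairpin length in nt, in panels by group, with markers for replicates. The lines give the FPKM of 1 fragment in each library between 79 and 149 nt (solid, dashed and dotted for replicates 1, 2 and 3), and most points lie on or just above the line of their library.

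Detected genes had longer hairpins. The annotated hairpin was 97 nt at the median of the 70 members (68 to 180 nt) and 80 nt at the median of the 1727 rows listed at 0, and 45.7% of members against 10.5% of the others were at least 100 nt long. The share detected was 0.234% of rows up to 69 nt, 0.473% from 70 to 79 nt, 4.09% from 80 to 89 nt, 5.99% from 90 to 99 nt, 17.0% from 100 to 109 nt and 13.5% from 110 nt. Hairpin GC content was close, with medians of 54.5% for the 50 members with a sequence and 51.7% for 1398 of the others. The part that length played in which genes were listed above 0 was not tested.

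**Figure D2:**
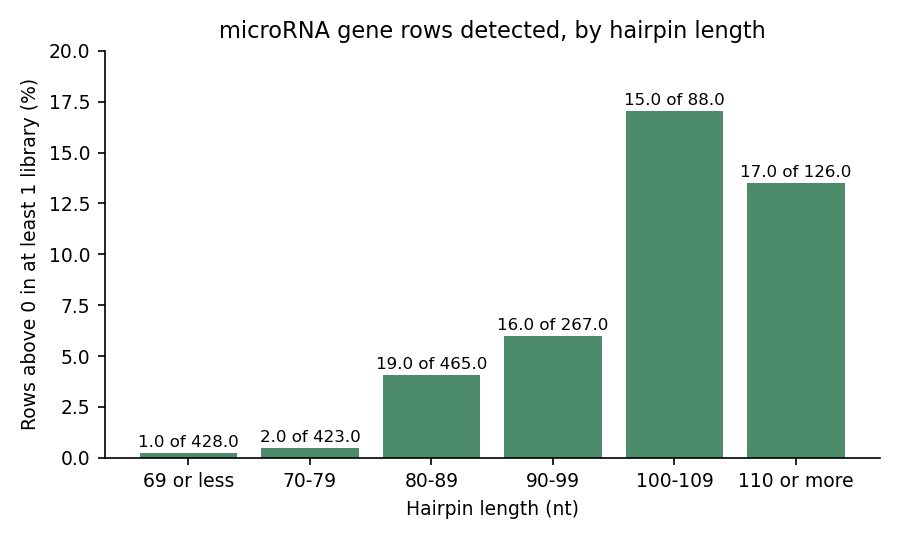
Share of microRNA gene rows above 0 in at least 1 library (vertical axis, %) by annotated hairpin length (horizontal axis, nt), with the number detected of all rows over each bar. The share was 0.234% among the shortest hairpins and 17.0% from 100 to 109 nt.

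The widely studied families were among the rows at 0. All 11 let-7 genes, all 6 genes of the miR-17-92 cluster and all 3 of the miR-106b-25 cluster were listed at 0 in every library. The same held for 5 genes typical of liver, muscle and blood cells, MIR122, MIR1-1, MIR133A1, MIR142 and MIR223. A listing at 0 allows a level of up to 3 fragments (counting error only), which is a different FPKM for each length and library.

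The lowest members stood just inside the rule. By their highest value these were MIR7851 at 5.54 FPKM, MIR1289-1 at 9.63, MIR1307 at 12.4 and MIR7844 at 25.04, each above 0 only in RiboMinus replicate 2. Their hairpins are among the long ones, 160, 144, 149 and 122 nt, where 1 fragment is worth little FPKM. Just outside the rule every row was at 0.

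In the share of summed FPKM the members took more room in NAD-Capture libraries. They made up 1.95% and 1.34% of the summed FPKM in the RiboMinus libraries, 13.4%, 17.7% and 18.8% in captured WT RNA, and 8.03%, 2.06% and 6.24% in the DXO-KO-labelled libraries. The means were 1.65% ± 0.44 (SD, n = 2), 16.6% ± 2.86 (SD, n = 3) and 5.44% ± 3.07 (SD, n = 3). The 3 groups did not overlap, with WT NAD-Capture highest and RiboMinus lowest. That order rested in part on MIR6723, the member with the highest mean over all libraries. Without MIR6723 the DXO-KO-labelled libraries ran from 0.903% to 5.88% and overlapped RiboMinus, which was unchanged. WT NAD-Capture, at 9.74% to 18.8%, was still highest. No test was made of these shares, since the same values chose the members.

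The fragments behind these shares had another order. They summed to 10 and 28 fragments in RiboMinus, 23, 16 and 27 in captured WT RNA, and 61, 20 and 13 in the DXO-KO-labelled libraries, and the 3 groups overlapped. DXO-KO replicate 1 held the most fragments at a share of 8.03%, while WT NAD-Capture replicate 2 held 16 fragments at 17.7%. In that WT library MIR301B alone was listed at 211384 FPKM, 56.6% of the members' FPKM, on about 1.92 fragments of a 78 nt hairpin. With the base value set without the members, this was 1.29 fragments. The share also depends on what it is divided by: with snoRNA and scaRNA rows left out of the sum, the means became 1.85%, 21.8% and 13.8%.

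**Figure D3:**
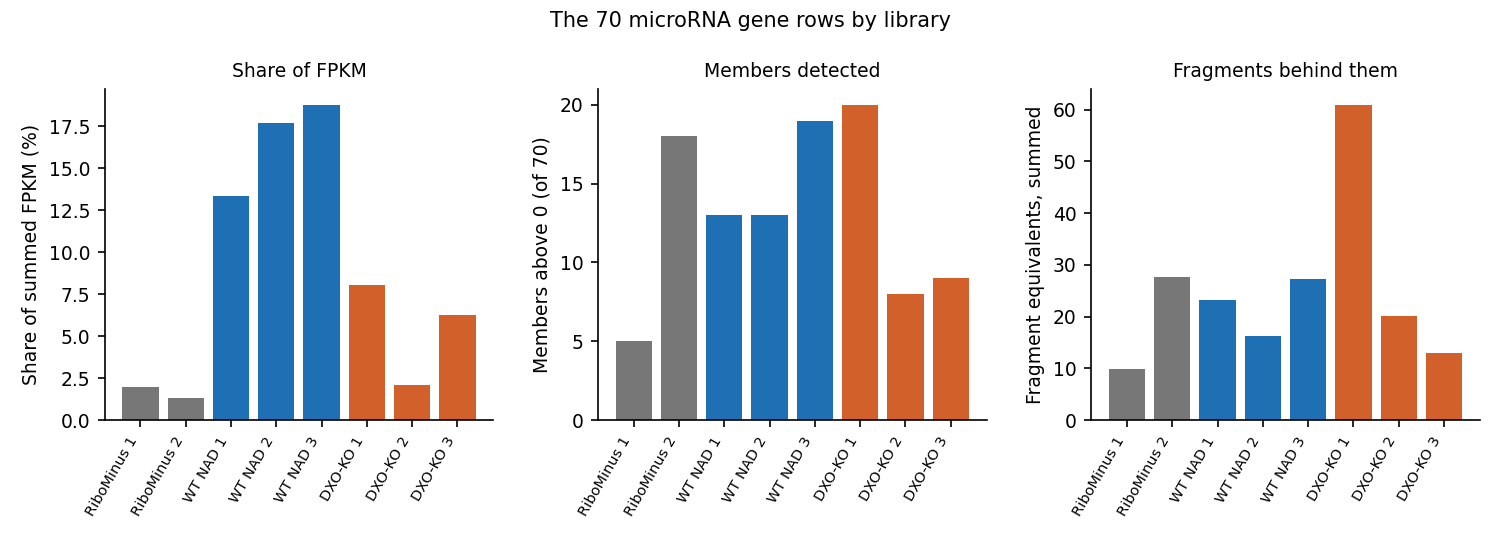
Share of summed FPKM (%), number of members above 0 and summed fragment equivalents of the 70 members in each library, as bars from 0 coloured by group (grey RiboMinus, blue WT NAD-Capture, orange labelled DXO-KO). WT NAD-Capture is highest by share (13.4% to 18.8%), whereas DXO-KO replicate 1 is highest by fragments (61).

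In the fragment values used here 7 members reached about 3 fragments in a library, and the other 63 stayed below. With the base value set without the members, MIR8078 also did, at 3.40 in WT NAD-Capture replicate 3 in place of 2.16. MIR663A, on chromosome 20 in an exon of its long noncoding host MIR663AHG, was the most widely seen. It was listed at 2148 and 3067 FPKM in RiboMinus, 29426, 0 and 22845 in captured WT RNA, and 17720, 14678 and 68056 in the DXO-KO-labelled libraries. In fragments these were 4.07 and 9.16, then 5.03, 0 and 5.04, then 15.0, 1.99 and 1.98. All 3 groups overlapped in fragments, and the highest FPKM, in DXO-KO replicate 3, rested on about 2 fragments, whose 95% Poisson interval ran from 8316 to 248049 FPKM. Such intervals cover counting error only, since copies made by PCR are not independent molecules. The row of MIR663B, a related gene, was at 0 throughout, and the host was listed at 9.99 FPKM in WT NAD-Capture replicate 1 and at 0.55 or less elsewhere.

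MIR6723 was seen only after NAD-Capture. The gene lies on chromosome 1 in an intron of AL669831.3, on the same strand. It is also antisense to MTCO1P12, a nuclear pseudogene copy of the mitochondrial gene for a cytochrome oxidase subunit. Reads shared with near-identical copies could not be separated here, so its values are uncertain. It was listed at 0 in both RiboMinus libraries, at 57832, 23159 and 0 FPKM in captured WT RNA, and at 27372, 98921 and 161748 in the DXO-KO-labelled libraries. Those values correspond to 5.98, 2.06 and 0 fragments and to 13.9, 7.80 and 3.00 fragments. It was the highest member in each library labelled DXO-KO, and the 2 NAD-Capture groups overlapped.

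MIR3648-2 on chromosome 21 and MIR3652 in an exon of HSP90B1, an endoplasmic reticulum chaperone, completed the recurrent members. MIR3648-2, at 180 nt the longest member, was listed at 0 and 6.68 FPKM in RiboMinus, 125, 141 and 0 in captured WT RNA, and 209, 158 and 0 in the DXO-KO-labelled libraries. About 9 of its 13.8 fragments were in DXO-KO replicate 1. MIR3652 was at 0 in RiboMinus, at 0, 1026 and 1305 FPKM in captured WT RNA, and at 468, 1543 and 0 in the DXO-KO-labelled libraries. Its fragments numbered between 1.88 and 4.78 where it was seen, and its host was listed at 184 FPKM or more in every library.

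**Figure D4:**
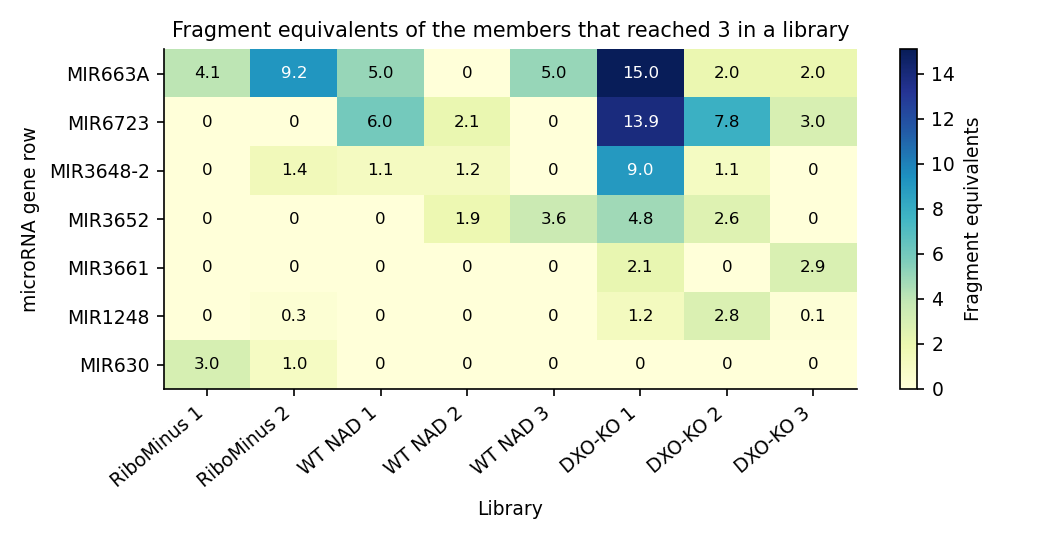
Fragment equivalents in each library (columns) of the 7 members that reached about 3 fragments somewhere (rows), ordered by their sum and coloured from 0 to 15. MIR663A is above 0 in 7 libraries and MIR6723 in 5 of the 6 NAD-Capture libraries, and DXO-KO replicate 1 holds the highest count of both.

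Next came the question whether capture or the DXO label moved any member. Differences were fitted with limma across all rows with a mean of at least 1 FPKM in the libraries compared, on the log2(FPKM + 1) scale, and called at a Benjamini-Hochberg adjusted p under 0.05. Of the 70 members 55, 55 and 41 passed that filter in the comparisons of DXO-KO with WT NAD-Capture, of WT NAD-Capture with RiboMinus, and of DXO-KO with RiboMinus. The last 2 comparisons share the RiboMinus libraries, and the comparisons share captured libraries too, so they are not independent. Members pass the filter through the group where they are high. The median difference of those tested, -3.43, 3.55 and 3.25 against -0.06, 0.24 and 0.13 over all rows tested, therefore supports nothing about the members.

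Between the NAD-Capture groups 1 member was called, MIR1248, higher in the DXO-KO-labelled libraries, where 0.032% of all rows tested were called in either direction and 0.024% higher. MIR1248 lies on chromosome 3 within EIF4A2, a translation initiation factor, and 102 of its 106 nt fall in SNORA81, a 177 nt snoRNA of the same gene. It was listed at 0 in all 3 WT NAD-Capture libraries and at 445, 6235 and 1497 FPKM in the 3 DXO-KO-labelled libraries. The fitted difference was 10.65 (SE 0.87, limma adjusted p = 0.0173), and such a value against a group at 0 follows from the pseudocount.

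By fragments the contrast was small. MIR1248 had 1.21, 2.81 and 0.13 fragments in the DXO-KO-labelled libraries, and 0.26 in RiboMinus replicate 2, where it was listed at 26.6 FPKM. At its length 3 fragments correspond to 4213 to 6383 FPKM in the WT NAD-Capture libraries and to 1103 to 35415 FPKM in those labelled DXO-KO. No library reached its own such floor, so no fold is given, and a lower level in WT was not detectable at this depth. The call was lost without WT NAD-Capture replicate 1, 2 or 3 or DXO-KO replicate 3 (limma adjusted p from 0.120 to 0.158), and with no filter on low values limma called no member (1 had an unadjusted p under 0.05).

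SNORA81 and the host gene give the setting of that row. SNORA81 was listed at 78.1 and 125 FPKM in RiboMinus, 1956, 2633 and 873 in captured WT RNA, and 888, 5620 and 16724 in the DXO-KO-labelled libraries, and the NAD-Capture groups overlapped. EIF4A2, summed over its transcripts, was at 51.9 and 51.5, then 263, 224 and 206, then 299, 586 and 634 FPKM, with no overlap between groups. How much of the MIR1248 row came from SNORA81 or EIF4A2 was not tested.

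MIR3651 is the other member inside a snoRNA. It lies on chromosome 9 in an intron of IARS1, an isoleucine tRNA synthetase gene, and 87 of its 90 nt fall in SNORA84, which is 133 nt long. MIR3651 was above 0 only in WT NAD-Capture replicate 1, at 8447 FPKM, the value of 1.00 fragment. SNORA84 was listed at 0 in that library, at 0, 1004 and 0 across the WT NAD-Capture replicates, at 1801, 1091 and 3060 in those labelled DXO-KO, and at 254 and 221 in RiboMinus. Among the members 2 of 70 (2.86%) overlapped a snoRNA or scaRNA gene, against 6 of 1727 (0.347%) of the rows at 0.

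WT NAD-Capture against RiboMinus gave 3 called members, all lower after capture, where 25.7% of all rows tested were called and 13.1% were lower. MIR5047, in an exon of DDX5, the helicase partner of DROSHA, was listed at 268 and 339 FPKM in RiboMinus and at 0 in all 3 WT NAD-Capture libraries (difference -8.24, SE 0.21, limma adjusted p = 0.00216). In a common fit of all 8 libraries that call was lost (limma adjusted p = 0.249). MIR3939 on chromosome 6 was at 153 and 97.9 FPKM against 0 (difference -6.95, SE 0.28, limma adjusted p = 0.00216). MIR630 in an exon of ARIH1, a ubiquitin ligase, was at 1077 and 227 FPKM against 0 (difference -8.95, SE 0.73, limma adjusted p = 0.00356).

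None of these could have been seen at that level in the captured libraries. At 100 nt 1 fragment was worth 2256 to 3414 FPKM in WT NAD-Capture, above both RiboMinus values of MIR5047. At 106 nt it was worth 1404 to 2128 FPKM, above those of MIR3939, and at 97 nt 2972 to 4489 FPKM, above those of MIR630. In RiboMinus the rows rested on 1.00 and 1.99 fragments for MIR5047, 0.99 and 0.98 for MIR3939, and 3.03 and 1.00 for MIR630. Hence a listing at 0 after capture does not place them lower, and no fold is given. MIR5047 was itself listed at 18079 FPKM in DXO-KO replicate 3, on 0.99 of a fragment.

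The count of called members hung on single RiboMinus libraries. Without RiboMinus replicate 1 limma called 16 members, all lower, beside 2678 of all 24684 rows tested, and without replicate 2 it called 4, all lower, beside 2639 of 24676. Without any 1 of the WT NAD-Capture replicates it called 5, of which 2 were higher and 3 lower, beside 8178 to 8302 of all rows tested. With RiboMinus replicate 2 alone, a member above 0 there and absent after capture has no spread of its own, and that library is then assumed to vary like the other group.

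Against RiboMinus the DXO-KO-labelled libraries also gave 3 called members, 1 higher and 2 lower, where 14.0% of all rows tested were called, 4.41% higher and 9.63% lower. MIR6723 was higher (difference 16.21, SE 0.85, limma adjusted p = 0.00963), a call lost in the common fit of all 8 libraries (limma adjusted p = 0.0743). Its mean of 96014 FPKM was 49.1-fold the mean value of 3 fragments per library in RiboMinus, 1954 FPKM. That fold bounds the RiboMinus side only and is no lower limit, since the DXO-KO-labelled values carry counting error. The lower ends of their Poisson intervals were 15089, 43789 and 33352 FPKM in replicates 1, 2 and 3. Reads shared with near-identical copies leave these values uncertain as well. MIR3939 (difference -6.95, SE 0.33, limma adjusted p = 0.00963) and MIR630 (difference -8.95, SE 0.74, limma adjusted p = 0.00974) were called lower on the same RiboMinus values. The RiboMinus values of MIR3939 were below the 368 FPKM or more that 1 fragment was worth under the DXO-KO label, and those of MIR630 below the 2318 FPKM or more of 3 fragments, so no fold is given for either. Without RiboMinus replicate 1 limma called 15 members, 1 higher and 14 lower, beside 1629 of all 22411 rows tested. Without DXO-KO replicate 3 it called 7, of which 4 were higher and 3 lower, beside 3976 of 21677.

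Several members with high means rested on a few fragments of short hairpins. In WT NAD-Capture MIR1181, in an exon of the chaperone gene CDC37, was listed at 0, 48700 and 30896 FPKM, on 1.03 and 0.94 fragments. With the base value set without the members, these were 0.84 and 1.78 fragments. MIR8078, antisense to the pseudogene ROCK1P1, was at 36739 FPKM in replicate 3 alone. MIR3661, antisense to PPP2CA, was above 0 only in DXO-KO replicates 1 and 3, at 1815 and 74117 FPKM and 2.13 and 2.89 fragments. MIR566 was seen in the same 2 libraries, at 1057 and 30737 FPKM, close to 1 fragment in each. All 4 rested on about 1 to 3 fragments in each library where they were seen.

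In RiboMinus the highest value belonged to MIR553, listed at 6937 FPKM in replicate 1 on 0.78 of a fragment and at 0 in replicate 2. MIR4269 and MIR186 were above 0 only in replicate 2, at 1786 and 715 FPKM, and MIR622 there at 251 FPKM. The libraries labelled DXO-KO had MIR8083, antisense to NPR1, at 53916 FPKM and MIR642A at 23218 FPKM in replicate 3, MIR3655 at 36176 FPKM in replicate 2, and MIR4665 at 19974 FPKM in replicate 1. Each of these 4 was at 0 in every other library.

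The imprinted cluster on chromosome 14, a long run of microRNA genes by the noncoding genes MEG8 and MEG9, supplied 5 members. Of 42 microRNA rows that follow each other there within 10 kb, MIR323B, MIR329-1, MIR541, MIR1185-1 and MIR1197 were above 0 (11.9%, beside 3.90% of all microRNA gene rows). They were seen in WT NAD-Capture replicate 1 (2 members) and replicate 3 (4) and in DXO-KO replicate 1 (3), and in no RiboMinus library. MIR323B was listed at 33367, 0 and 29240 FPKM in WT NAD-Capture and at 7245, 0 and 0 in the DXO-KO-labelled libraries, about 1 fragment each time, or 1.99 in WT NAD-Capture replicate 3 with the base value set without the members. MIR329-1 was listed at 58051 FPKM in WT NAD-Capture replicate 1 and 13440 FPKM in DXO-KO replicate 1, again about 1 fragment in each, so the 2 values differ by what a fragment was worth. The 5 members together came to 9 values above 0 and about 10 fragments.

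Most members lay inside other genes. Of the 70 members 20 (28.6%) lay in an exon of a gene on the same strand, 34 (48.6%) in an intron, 7 only antisense to a gene and 7 away from any, the last 2 being those within snoRNAs. Among the rows at 0 the exonic share was 16.4% and the intronic 50.7%. The host gene of 49 members had a row of its own in the table, and the median host was listed at 7.81 to 15.2 FPKM over the 8 libraries. The median of all named genes, those at 0 included, was 1.06 to 4.36. Hosts of the microRNA gene rows at 0 were not summarised, so whether detected members had higher hosts was not tested. MIR612 is a member inside a host with a row of its own, the noncoding RNA NEAT1. It was listed at 278 FPKM in DXO-KO replicate 1, on 0.47 of a fragment, where NEAT1 was at 144 FPKM.

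For 5 members a mature strand is identical to that of another gene, so a read on the mature part could not tell them apart. These were MIR133A2 with MIR133A1, MIR329-1 with MIR329-2, MIR1185-1 with MIR1185-2, MIR7-3 with MIR7-1 and MIR1289-1 with MIR1289-2. The 5 partner rows were at 0 in all 8 libraries. MIR133A2, whose mature strands are known for abundance in muscle, was listed at 2529, 2875 and 0 FPKM in captured WT RNA and at 1002, 0 and 0 FPKM in the DXO-KO-labelled libraries, on 1 or 2 fragments each time, and at 0 in RiboMinus.

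The protein genes that make and use microRNAs had far deeper data. FPKM was summed over each gene's transcripts for 26 genes of processing, export, dicing, Argonaute function and precursor control. In WT NAD-Capture against RiboMinus 10 of the 26 were called, all lower, where 24.5% of all genes tested were called and 7.85% were lower. The median difference of the 26 was -0.84, against 0.22 over all 17292 genes tested, many of them low. Among genes with a mean of at least 10 FPKM it was -1.03 for 21 pathway genes and -0.33 for all 6949. In that setting 10 of the 21 and 1248 of the 6949 were called lower. Without RiboMinus replicate 1 or 2 limma called none of the 26 (8 and 9 had an unadjusted p under 0.05), and of all genes it then called 13 of 17640 and 14 of 17601. Without WT NAD-Capture replicate 3 it called 6 of 25, beside 5156 of all 16451 genes (1821 lower). After quantile normalization it called 4 of 26, beside 2467 of 17292 (987 lower). With each library centred on its median gene it called 14 of 26, beside 5392 of 17292 (3193 lower). The pathway genes called in these 3 settings were all lower.

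Of the dicing genes all 3 fell. DICER1, which cuts the hairpin, was at 29.5 and 29.1 FPKM in RiboMinus and 11.7, 4.89 and 4.46 in WT NAD-Capture (difference -2.03, SE 0.43, limma adjusted p = 0.0260). Its partners TARBP2 (difference -1.59) and PRKRA (difference -0.94) were lower as well. XPO5, the exporter, was at 50.5 and 50.3 FPKM against 18.3, 7.12 and 15.8 (difference -1.90, SE 0.42, limma adjusted p = 0.0289), while RAN, the GTPase that works with it, differed by 0.07 and was not called. For DICER1 and XPO5 every WT NAD-Capture library lay below both RiboMinus libraries, but both genes were called on these same values, so this adds no support.

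Among the 8 nuclear processing genes 4 were called lower: ADAR, which edits double-stranded RNA (difference -1.48), KHSRP (-1.42), HNRNPA1 (-1.09) and SRRT (-1.03), all of which bind RNA. DROSHA itself was at 18.8 and 21.4 FPKM in RiboMinus and 12.1, 15.4 and 11.0 in WT NAD-Capture (difference -0.62, limma adjusted p = 0.126), and DGCR8 at 25.2 and 25.9 against 15.8, 17.0 and 4.83 (difference -1.14, limma adjusted p = 0.203). Neither passed the threshold. Of 7 effector genes AGO1 (difference -1.53) and TNRC6A (-1.23), a scaffold that Argonautes bind, were lower. None of the 6 precursor control genes was called.

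Between the NAD-Capture groups none of the 26 was called by limma, where 0.0333% of all genes tested were. Of the 26, 3 had an unadjusted p under 0.05, beside 2984 of all 18041 genes tested. TARBP2 was at 32.2, 23.4 and 14.9 FPKM in the DXO-KO-labelled libraries against 4.23, 9.82 and 6.53 in WT (difference 1.64, limma adjusted p = 0.168). TUT4, a terminal uridylyltransferase that tags precursors, was at 22.9, 35.2 and 33.0 against 11.2, 15.2 and 13.0 (difference 1.13, limma adjusted p = 0.184). LIN28A, which binds let-7 precursors, was at 0 in all 3 against 1.37, 1.60 and 5.33 (limma adjusted p = 0.299). The groups did not overlap for these 3 genes, but they were named for their unadjusted p, so this adds no support.

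Against RiboMinus the DXO-KO-labelled libraries had 2 of 25 genes called, both lower, where 3.34% of all genes tested were called and 0.89% were lower. They were XPO5 (difference -2.04, SE 0.25, limma adjusted p = 0.0256) and SRRT (difference -1.38, SE 0.21, limma adjusted p = 0.0379). Without RiboMinus replicate 1 or 2, without DXO-KO replicate 2 or with no filter limma called none (2, 2, 7 and 8 at an unadjusted p under 0.05), and of all genes it then called 0, 2, 1 and 76, in place of 510. Scaling moved the split over all genes more: WT NAD-Capture against RiboMinus called 2878 genes higher and 1358 lower as deposited, 2199 and 3193 with each library centred on its median gene, and 1480 and 987 after quantile normalization. With DXO-KO against RiboMinus the counts were 374 and 136, then 386 and 333, then 476 and 352.

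**Figure D5:**
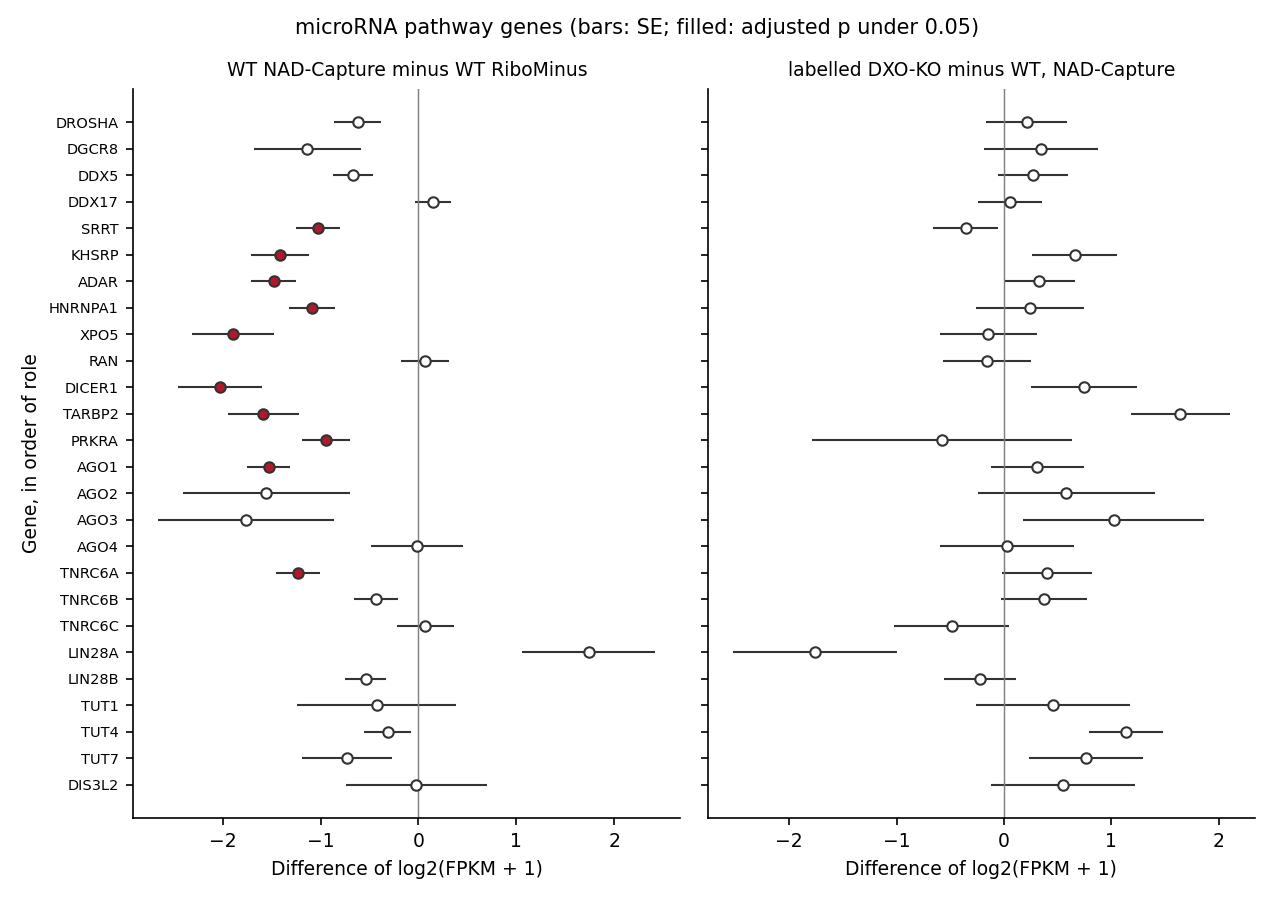
Difference of log2(FPKM + 1) for 26 microRNA pathway genes, WT NAD-Capture minus RiboMinus on the left and libraries labelled DXO-KO minus WT NAD-Capture on the right, with bars for the SE and filled points for an adjusted p under 0.05. On the left 10 genes are called, all below 0, and on the right none is.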

How the data were processed

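RNA of HEK293T cells was sequenced in 8 libraries. The authors deposited FPKM per RefSeq transcript, per the file headers, and the submitters' processing notes name TopHat2 2.1.1, Bowtie2 2.2.8.0, Cuffdiff and build hg19. Strand and multi-mapped reads are not given in the sources used here. Of 53216 rows, 48862 were named through RefSeq and 618 through GENCODE release 29. Neighbours, lengths and sequences came from GRCh38.p14, so no coordinates are given. The FPKM of 1 fragment was fitted per library against length on rows up to 200 nt. Differences were tested two-sided with limma 3.58.1 (R 4.3.3, eBayes with trend) on log2(FPKM + 1). Rows needed a mean of at least 1 FPKM. Adding 1 understates changes of low rows. A check on simulated data placed its changes in rows of low spread, so it does not speak for the members. A floor is 3 fragments, and intervals are 95% Poisson. Named were called members, the 8 highest per group, members in all replicates, the 4 lowest and members in snoRNAs; 1 of the 8 highest is not reported here, and others were chosen after their values were seen. Members and lists were chosen with earlier results of these data known. Python 3.11.15 made tables and figures.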

Additional observations from a re-analysis of the deposited data

How the results depend on the processing

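Alternatives were a pseudocount of 0.1, no filter, a mean of at least 10 FPKM, median centring, quantile normalization, a common fit of all 8 libraries, sums per gene symbol, a block for the replicate number, and leaving out each replicate.

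The replicate numbers did not pair the libraries, since correlations of deviations between same-numbered libraries ran from -0.03 to 0.01. With the replicate block the called members became 0 in all 3 comparisons and the called pathway genes 0 in both comparisons with RiboMinus, where limma called none of all rows or genes tested either.

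Leaving out 1 replicate, called members ranged from 0 to 1 for DXO-KO against WT NAD-Capture, 4 to 16 for WT NAD-Capture against RiboMinus and 3 to 15 for DXO-KO against RiboMinus. The 1 called without WT NAD-Capture replicate 1 was MIR1181, lower, and MIR1248 was lost there, without WT NAD-Capture replicate 2 or 3 and without DXO-KO replicate 3. Called pathway genes ranged from 0 to 9 for WT NAD-Capture against RiboMinus, with 0 without either RiboMinus library and 6 without WT NAD-Capture replicate 3, and from 0 to 3 for DXO-KO against RiboMinus.

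Without a filter, members called between the NAD-Capture groups became 0 and pathway genes called in DXO-KO against RiboMinus 0. A pseudocount of 0.1 gave 11 pathway genes for WT NAD-Capture against RiboMinus, 1 of them higher, beside 4755 of all 17292 genes tested. Quantile normalization gave 4, beside 2467 of all genes, and median centring gave 14, beside 5392. With snoRNA and scaRNA rows left out of the sum, the members' share was 21.8% in WT NAD-Capture and 13.8% with the DXO-KO label. The differences of the called members kept their sign under the alternatives run on them. Each was at 0 in every library of 1 group compared, so the kept sign supports nothing about them. The cause of these changes was not tested. Depth limits every member: most values are 1 fragment.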
